A study of Mus musculus with 4 samples.

Results

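The Kruppel-like factors described here were 10 genes of the family, Klf2, Klf3, Klf4, Klf5, Klf6, Klf7, Klf9, Klf10, Klf13 and Klf16, chosen by symbol among the 13824 gene symbols of the deposited tables. All 10 were found, and all 10 passed the minimum mean of 1 FPKM (fragments counted per transcript, scaled to its length and to the size of the library) for a test. The RNA came from C2C12, a mouse myoblast line that fuses into myotubes when serum is lowered, and the labels call the cells myoblasts. Every culture received 30 nM siRNA by Lipofectamine and then spent 48 h in differentiation medium with horse serum. The control group was 2 libraries with scrambled siRNA, and the silenced group was 2 libraries with an siRNA against Mef2a, written siMEF2A. The comparison asks how transcript levels in differentiating myoblasts depend on MEF2A, a transcription factor of muscle. Silencing was partial, as given below, and the cells are 1 line, so both groups share its genotype. The labels do not tell whether the 2 libraries of a group are separate cultures, so the spread between libraries may be technical. The p-values set a difference beside that spread, taken largely over genes of similar level (2 residual and 31.1 prior degrees of freedom).

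Kruppel-like factors are transcription factors whose C2H2 zinc fingers bind CACCC boxes and related GC-rich sites. The rest of each protein differs: Klf3 recruits the corepressor CtBP, Klf9, Klf10, Klf13 and Klf16 recruit the corepressor SIN3A, and Klf2, Klf4, Klf5, Klf6 and Klf7 are known mainly as activators. In several tissues the kinase ERK5 acts through MEF2 proteins on Klf2 and Klf4, and in myoblasts Klf2 and Klf4 are known to promote fusion through the matrix protein gene Npnt. Klf5 is known to act beside MyoD and MEF2 in muscle differentiation, and Klf6 is known as a MEF2 target.

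Promoters were read for 7 of the 10 genes, Klf2, Klf3, Klf4, Klf6, Klf7, Klf9 and Klf13, from RefSeq on build GRCm38.p6, as 250 bases before and 50 bases after the annotated start. Positions are counted from that start, with negative numbers upstream. Of these 7 promoters, 1 held a match to the 10-base MEF2 consensus, that of Klf2, at position -118, and 3.19% of 32851 promoters of the same length held one. The stretch is printed because it is the member promoter whose letters bear on the silenced factor. It lies on the plus strand at chr8:72318844-72319032 and ends before the first annotated transcript, with the match in capitals.
Klf2: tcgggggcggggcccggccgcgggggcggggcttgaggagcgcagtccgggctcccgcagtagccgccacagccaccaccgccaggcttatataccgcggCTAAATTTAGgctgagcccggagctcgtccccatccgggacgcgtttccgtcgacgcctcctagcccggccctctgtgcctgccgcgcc

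The CACCC box, the site that the family itself binds, was searched as CACCC and GGGTG, its letters on the other strand. It was found in 5 of the 7 promoters, beside 57.5% of all promoters. Klf3 held 5 matches, Klf7 held 3, and Klf2, Klf9 and Klf13 held 1 each, while Klf4 and Klf6 held none in this window. RefSeq starts can differ from those of the GENCODE M21 annotation. By GENCODE M21 all matches of Klf7, with its stretch below, lie inside the gene, which spans 64029447 to 64122282. The Klf3 matches at -120, -111 and -48 and the Klf2 match at -19 also lie inside their genes. The stretches below show how the box is placed, in capitals, in the promoters of Klf3 (chr5:64803329-64803383, plus strand), Klf7 (chr1:64121492-64121545, minus strand), Klf9 (chr19:23141117-23141171, plus strand) and Klf13 (chr7:63938916-63938962, minus strand).
Klf3: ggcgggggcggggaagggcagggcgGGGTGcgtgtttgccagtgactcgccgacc
Klf7: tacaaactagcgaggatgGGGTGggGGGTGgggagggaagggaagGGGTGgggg
Klf9: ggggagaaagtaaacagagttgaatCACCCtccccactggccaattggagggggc
Klf13: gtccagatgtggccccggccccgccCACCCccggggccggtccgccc

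Other motifs in the same 7 windows were searched on both strands. The GC box (GGGCGG or CCGCCC) was found in 6, all but Klf9, beside 35.7% of all promoters. The CCAAT box (CCAAT or ATTGG) was found in 3, Klf6, Klf9 and Klf13, beside 37.4%, and the cAMP response half-site (TGACG or CGTCA) in 5, Klf2, Klf3, Klf4, Klf9 and Klf13, beside 20.8%. The CArG box, the site of serum response factor, was found in 0 of 7, beside 1.63%. A CACCC box overlapped a GC box by 1 base in Klf3 and in Klf13, a pair of GC boxes overlapped by 1 base in Klf4, and a pair of CCAAT boxes by 2 bases in Klf9. By GENCODE M21 the GC boxes at -89 in Klf3 and -217 in Klf7 and the half-site of Klf3 lie inside the genes. Each match is a description of the letters and not a site in use.

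**Figure D1:**
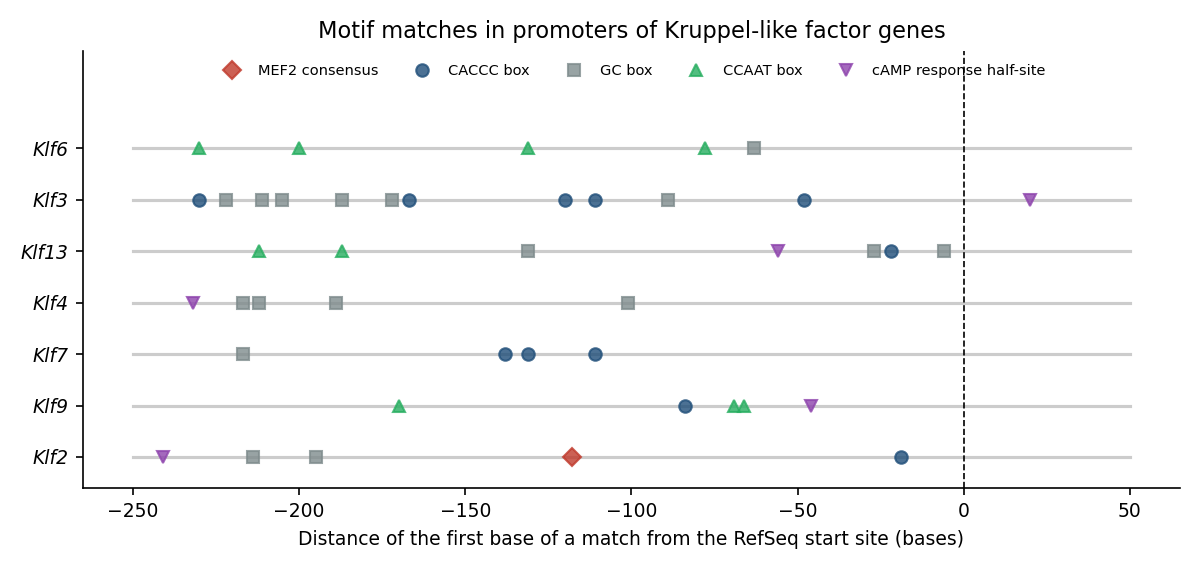
Motif matches in the promoters of 7 Kruppel-like factor genes, by the distance of the first base of a match from the RefSeq start (bases, dashed line at the start); grey lines span the window searched. The match to the MEF2 consensus is the diamond of Klf2 at -118.

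The targeted gene Mef2a was at 25.8 and 32.2 FPKM with scrambled siRNA and at 12.7 and 14.3 FPKM with siMEF2A. Silencing left 46.5% of the scrambled mean, a log2 fold change of -1.05 with an SE of 0.15 (limma adjusted p = 2.40e-05). Exons of Mef2a overlap those of Lysmd4 on the opposite strand. Over 11822 genes tested, 206 passed at a limma adjusted p under 0.05, or 1.74%, with 48 higher (0.406%) and 158 lower (1.34%) in siMEF2A. By this count 76.7% of calls were lower, and the share was 90.4% to 90.7% under 3 other scalings. Of 9 muscle markers tested, 6 fell and 0 rose, which were Myh3, Ckm, Tnnt3, Actc1, Tmem8c and Myog, and the range of their log2 fold changes with the other 3 was -1.53 to -0.085. When 1 library was left out, Myog and Tmem8c kept log2 fold changes of -0.72 to -0.59 and -0.90 to -0.55. They did not pass without scrambled replicate 2 (limma adjusted p = 0.134 and 0.152), siMEF2A replicate 1 (0.468 and 0.239) or siMEF2A replicate 2 (0.179 and 0.0541). In such bulk RNA, fewer differentiated cells and less RNA per cell cannot be told apart. Of 14 markers of other cell types, Cd68 of macrophages alone was analysed here, at 1.61 to 1.78 FPKM over the 4 libraries.

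None of the 10 Kruppel-like factors passed the test between the groups. The limma counts were 0 higher and 0 lower at an adjusted p under 0.05, beside 1.74% of all genes tested. At an unadjusted p under 0.05 the count was also 0, where 6.38% of all genes stood, 3.1% higher and 3.28% lower. The unadjusted count was 1 of 10 under each of 3 other scalings, where the share of all genes was not counted. The smallest adjusted p was that of Klf5 (0.798), and the other 9 were at 1.0. The log2 fold changes ran from -0.31 for Klf5 to 0.24 for Klf3, with a median of 0.067 beside 0.045 over all genes tested. Each of the 10 intervals held 0, and together they reached from -0.62 to 0.56 on the log2(FPKM + 1) scale. Among the 7219 genes tested whose mean FPKM lay within the members' range, 115 passed, and the smallest log2 fold change called among them was 0.54 in size. Differences of the size seen in the family were thus below those called at this level.

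**Figure D2:**
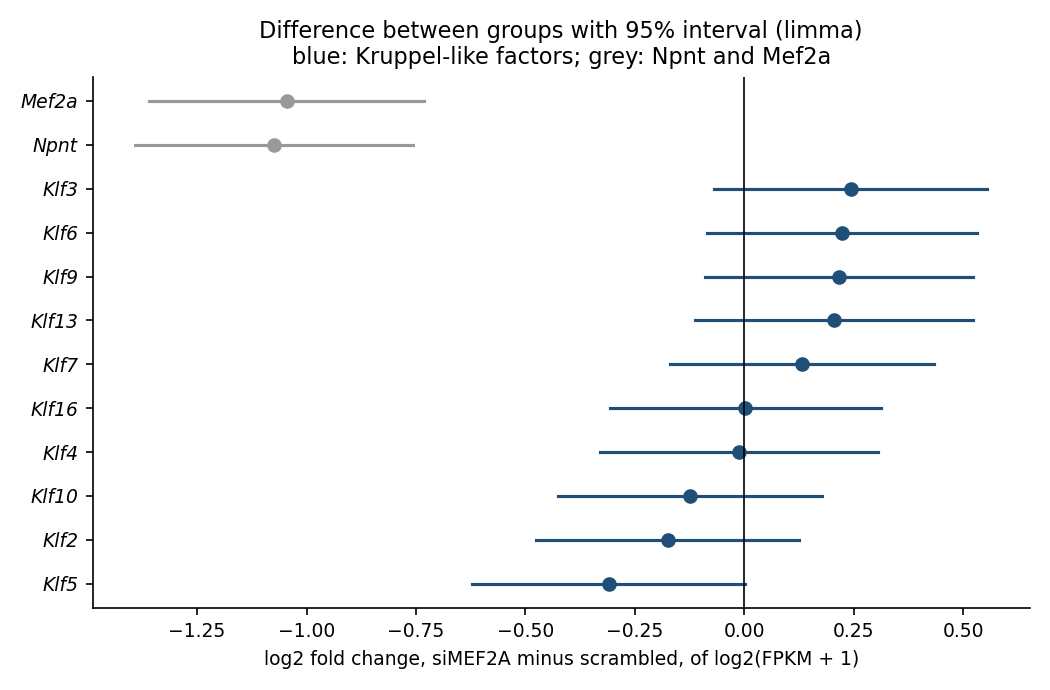
Log2 fold change of each Kruppel-like factor (siMEF2A minus scrambled, of log2(FPKM + 1); points) with its 95% interval from limma (lines), beside Npnt and Mef2a in grey. All 10 intervals of the family cross 0, and those of Npnt and Mef2a do not.

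FPKM is per length, so levels can be set beside each other between genes, though each level sums the listed transcripts alone. Klf6 and Klf3 stood apart as the most abundant members in every library, and together they gave 56.3% to 62.4% of the summed FPKM of the 10 genes. In scrambled the order of mean levels was Klf6, Klf3, Klf13, Klf5, Klf10, Klf16, Klf4, Klf7, Klf9 and Klf2. The ranges of neighbours overlapped everywhere in that order except between Klf3 and Klf13 and between Klf16 and Klf4, so the order holds as 3 tiers. In siMEF2A the order was Klf6, Klf3, Klf13, Klf16, Klf10, Klf5, Klf7, Klf9, Klf4 and Klf2. The top 2, middle 4 and lowest 4 places held the same genes as in scrambled, but Klf6 and Klf3 and likewise Klf13 and Klf16 no longer overlapped, and Klf2 lay below all others in both libraries. The sum over the 10 genes was 95.1 and 109.5 FPKM with scrambled siRNA and 107.2 and 118.0 FPKM with siMEF2A, ranges that overlap.

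**Figure D3:**
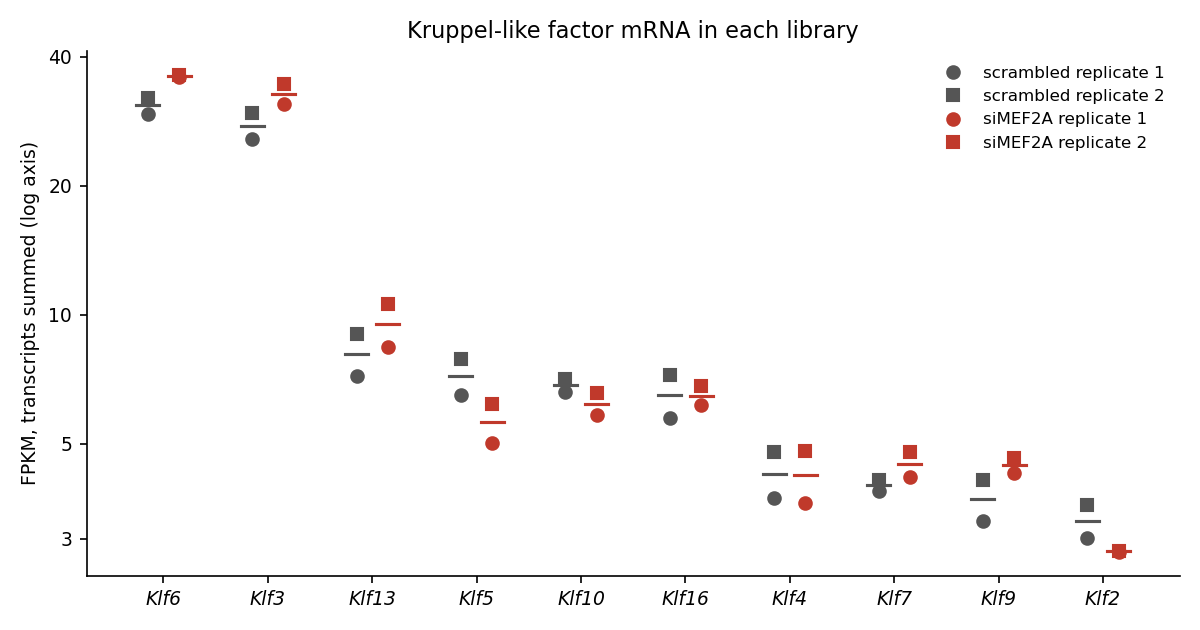
FPKM (log axis) of the 10 Kruppel-like factors in each library, in order of the scrambled mean; circles are replicate 1, squares replicate 2 and short lines the mean of 2 libraries. Klf6 and Klf3 lie above 25 FPKM in every library, and the other 8 genes lie below 11 FPKM.

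Klf3, the CtBP-recruiting repressor (ENSMUSG00000029178, chromosome 5, 64803388 to 64832901, plus strand, GENCODE M21 on mm10), was at 25.6 and 29.5 FPKM with scrambled siRNA. In siMEF2A it was at 31.1 and 34.5 FPKM. Both siMEF2A libraries lay above both scrambled ones, and the group mean was 119% of scrambled. The log2 fold change was 0.24 (SE 0.15, interval -0.068 to 0.56), which did not pass (limma adjusted p = 1.0). It ran from 0.15 without scrambled replicate 1 to 0.34 without scrambled replicate 2. Of 9 annotated transcripts, 2 were listed, both protein-coding. The longer one, of 5221 bases, took 81.0% and 88.0% of the gene's FPKM with scrambled siRNA and 85.1% and 83.5% in siMEF2A. The shorter one, of 1562 bases, was at 4.88 and 3.53 FPKM with scrambled siRNA and at 4.62 and 5.70 FPKM with siMEF2A, with overlapping groups. The split between the transcripts therefore varied more between the scrambled libraries than between the groups. The exons of Klf3 overlap those of Gm20033 on the opposite strand, and no use of strand was stated, so reads of the pair cannot be told apart.

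Among the activators, Klf6 (ENSMUSG00000000078, chromosome 13, 5861482 to 5870394, plus strand) was the most abundant. It was at 29.5 and 32.1 FPKM with scrambled siRNA and at 35.8 and 36.3 FPKM with siMEF2A. The siMEF2A libraries lay above and close together, at 117% of the scrambled mean (log2 fold change 0.22, SE 0.15, interval -0.085 to 0.53, limma adjusted p = 1.0). Its promoter window held 4 CCAAT boxes and no match to the MEF2 consensus.

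Klf5 (ENSMUSG00000005148, chromosome 14, 99298691 to 99315036, plus strand), which acts in muscle and smooth muscle differentiation, had the largest difference of the 10. It was at 6.49 and 7.91 FPKM with scrambled siRNA and at 5.03 and 6.20 FPKM with siMEF2A. Both siMEF2A libraries were lower, the closest pair being siMEF2A replicate 2 and scrambled replicate 1, and the mean was 78.0% of scrambled. The log2 fold change was -0.31 (SE 0.15, interval -0.62 to 0.0026, unadjusted p = 0.0518, limma adjusted p = 0.798). Leaving out scrambled replicate 2 gave -0.19, and leaving out siMEF2A replicate 1 gave -0.18, so that each of these libraries moves the value by more than 1.5 times. The log2 fold change was larger in size, at -0.43 without scrambled replicate 1 and -0.44 without siMEF2A replicate 2.

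Klf2 (ENSMUSG00000055148, chromosome 8, 72319033 to 72321656, plus strand), an ERK5-responsive factor of endothelium and muscle, was the least abundant member. It was at 3.02 and 3.60 FPKM with scrambled siRNA and at 2.80 and 2.82 FPKM with siMEF2A. Both siMEF2A libraries were lower and nearly alike, at 84.8% of the scrambled mean. Its log2 fold change of -0.18 (SE 0.15, interval -0.48 to 0.13) did not pass (limma adjusted p = 1.0), and it was -0.078 without scrambled replicate 2 and -0.27 without scrambled replicate 1. This is the gene whose promoter holds the MEF2 consensus CTAAATTTAG shown above, and its interval reaches from a fall to a rise.

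Klf4 (ENSMUSG00000003032, chromosome 4, 55527143 to 55532466, minus strand), known for growth arrest and for reprogramming to pluripotency, differed between replicates and not between group means. It was at 3.73 and 4.79 FPKM with scrambled siRNA and at 3.63 and 4.81 FPKM with siMEF2A, so the groups overlapped. The log2 fold change was -0.013 (interval -0.33 to 0.30, limma adjusted p = 1.0), and it changed sign when scrambled replicate 2 (0.13) or siMEF2A replicate 1 (0.15) was left out.

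Klf7 (ENSMUSG00000025959, chromosome 1, 64029447 to 64122282, minus strand), known from neurons and as an inhibitor of fat cell formation, was at 3.89 and 4.11 FPKM with scrambled siRNA and at 4.18 and 4.79 FPKM with siMEF2A. The siMEF2A libraries lay just above the scrambled ones, at 112% of their mean (log2 fold change 0.13, interval -0.17 to 0.43, limma adjusted p = 1.0). Its value was 0.21 without siMEF2A replicate 1 and 0.053 without siMEF2A replicate 2. Its FPKM came from 4 listed transcripts. The transcript of 7662 bases was at 1.60 to 2.16 FPKM over the 4 libraries and that of 1477 bases at 1.55 to 2.28 FPKM, and the other 2, of which 1 is absent from GENCODE M21, were at most at 0.373 FPKM. None of the 4 separated the groups on its own. Exons of Klf7 overlap Gm26649 and Gm13748 on the opposite strand, with the same limit as for Klf3.

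In the group that recruits SIN3A, Klf13 (ENSMUSG00000052040, chromosome 7, 63886351 to 63938915, minus strand) was the most abundant. It was at 7.20 and 9.02 FPKM with scrambled siRNA and at 8.39 and 10.6 FPKM with siMEF2A, and the groups overlapped. The log2 fold change was 0.20 (SE 0.16, interval -0.11 to 0.52, limma adjusted p = 1.0). It was 0.060 without scrambled replicate 1 and 0.052 without siMEF2A replicate 2, and 0.35 without scrambled replicate 2 and 0.36 without siMEF2A replicate 1.

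Klf9 (ENSMUSG00000033863, chromosome 19, 23141226 to 23168134, plus strand), which glucocorticoid and thyroid hormone induce in many cells, was at 3.30 and 4.13 FPKM with scrambled siRNA and at 4.28 and 4.63 FPKM with siMEF2A. Both siMEF2A libraries were higher, at 120% of the scrambled mean, the largest ratio of the family. The log2 fold change was 0.22 (SE 0.15, interval -0.089 to 0.52, limma adjusted p = 1.0), and it was 0.089 without scrambled replicate 1 and 0.34 without scrambled replicate 2.

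Klf10 (ENSMUSG00000037465, chromosome 15, 38291463 to 38300706, minus strand), an early response gene of TGF-beta, was at 6.60 and 7.08 FPKM with scrambled siRNA and at 5.83 and 6.57 FPKM with siMEF2A. The siMEF2A libraries were lower by a narrow margin, at 90.7% of the scrambled mean (log2 fold change -0.12, interval -0.43 to 0.18, limma adjusted p = 1.0), and the log2 fold change was -0.079 without scrambled replicate 2 and -0.050 without siMEF2A replicate 1, and -0.20 without siMEF2A replicate 2. Of its 6 transcripts in GENCODE M21, 1 was listed, and its value is that of the listed one. The same held for Klf4 and Klf6 (1 of 3 each), Klf13 (1 of 4), and Klf5 and Klf9 (1 of 2 each).

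Klf16 (ENSMUSG00000035397, chromosome 10, 80567124 to 80577321, minus strand), a repressor of GC-rich promoters, was at 5.74 and 7.25 FPKM with scrambled siRNA and at 6.14 and 6.81 FPKM with siMEF2A. The siMEF2A libraries lay inside the scrambled range, and the log2 fold change was 0.0021 (interval -0.31 to 0.31, limma adjusted p = 1.0), with a sign that changed with scaling.

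By role, the non-overlapping members pointed both ways. Higher in both siMEF2A libraries than in both scrambled ones were Klf3, Klf6, Klf7 and Klf9, 4 of 10 beside 18.8% of all genes tested. Lower in both were Klf2, Klf5 and Klf10, 3 of 10 beside 9.12%. Klf4, Klf13 and Klf16 overlapped, and the same 7 genes were separated in the same directions under median-ratio, upper-quartile and quantile scaling. Under those scalings 14.1%, 15.4% and 17.4% of all genes tested were separated as higher, and 14%, 12.3% and 12.2% as lower. With 2 libraries a group, such a separation is a description: 27.9% of all genes tested showed it in one direction or the other.

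For 7 of the 10 members, at least 1 of the 2 replicate differences was as large as the difference between groups. On the deposited scale replicate 2 was above replicate 1 in both groups for all 10 members, beside 49.5% of all genes tested. That share was 55.6% among the 7219 genes tested within the members' range of mean FPKM. Under each of the 3 other scalings replicate 2 was above in both groups for 7 members, and the share of all genes there was not counted. On the log2(FPKM + 1) scale the median difference of replicate 2 minus replicate 1 over the members was 0.22 in scrambled and 0.15 in siMEF2A. These medians were 0.092 and 0.069 over all genes tested, and 0.11 and 0.098 over the 7219 genes. The difference between groups was larger than both replicate differences for 3 members, Klf3, Klf5 and Klf6, beside 17.8% of all genes tested. For Klf13 the replicates differed by 0.29 in scrambled and 0.31 in siMEF2A, and the groups by 0.20. The part of library differences in the values of these 3 members was not tested.

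**Figure D4:**
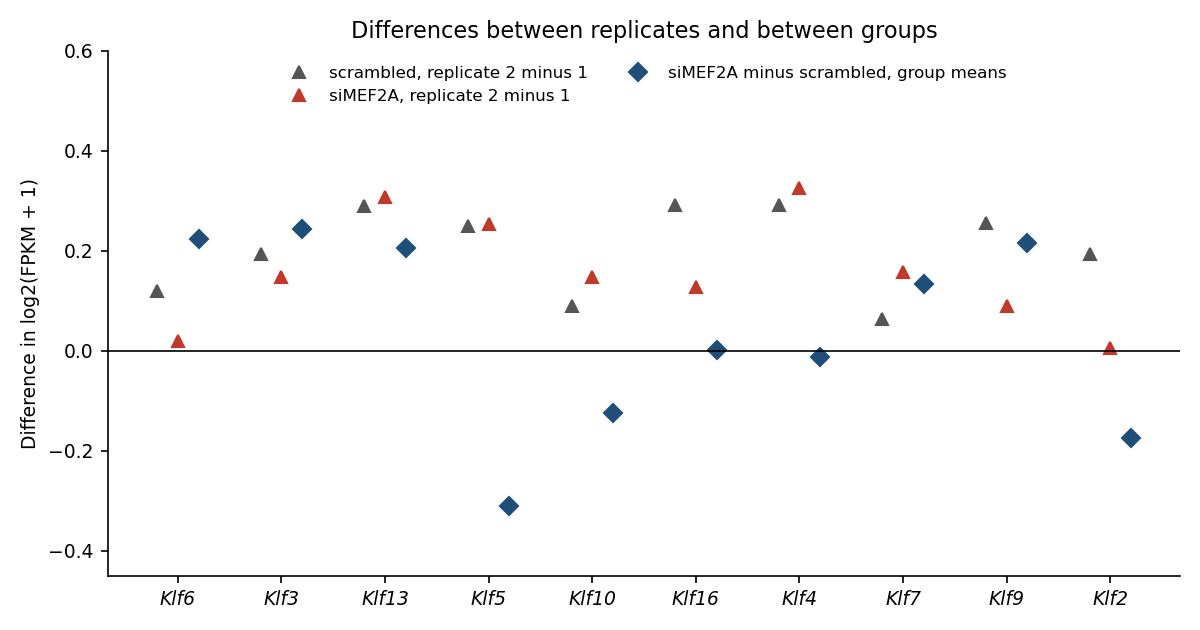
Difference in log2(FPKM + 1) between replicates of each group (triangles) and between the group means (diamonds) for the 10 Kruppel-like factors, in order of the scrambled mean. All triangles lie above 0 on the deposited scale. Under other scalings this held for 7 genes, and the share of all genes there was not counted. The diamonds of Klf3, Klf5 and Klf6 lie farther from 0 than both triangles.

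Relatives of the family were given by 2 lists. Klf11, another SIN3A-recruiting member, was at 1.44 and 1.52 FPKM with scrambled siRNA and 1.12 and 1.59 FPKM with siMEF2A, and Klf1, Klf8, Klf12, Klf14, Klf15 and Klf17 were not analysed here. Of the SP factors, which bind GC boxes with similar zinc fingers, Sp1, Sp2, Sp3 and Sp4 were tested. In either direction 0 of 4 passed, beside 1.74% of all genes tested, and the median log2 fold change was 0.11. The smallest p of the 4 was that of Sp1, at 7.40 and 8.86 FPKM with scrambled siRNA and 8.80 and 10.9 FPKM with siMEF2A, where the groups overlapped.

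No gene of the 2 lists of partners passed, beside 1.74% of all genes tested, so a count of 0 in lists this short says little about them. Of 15 corepressor and coactivator genes, 0 rose and 0 fell, with a median log2 fold change of 0.065. The smallest p was that of Sin3a, the corepressor of the Klf9 and Klf13 group, which was at 3.25 and 6.88 FPKM with scrambled siRNA and at 6.81 and 8.01 FPKM with siMEF2A (limma log2 fold change of 0.54 with an SE of 0.19, adjusted p = 0.221). Scrambled replicate 1 stood apart there, and the groups overlapped. Ctbp1 and Ctbp2, the corepressors of Klf3, had log2 fold changes of 0.15 and 0.16. Of 12 ubiquitin ligase genes that include Wwp1 and Fbxw7, which act on Klf proteins, 0 passed, and the smallest p belonged to Fbxo32, the muscle atrophy ligase, at 14.3 and 15.3 FPKM with scrambled siRNA and 11.3 and 13.1 FPKM with siMEF2A.

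Upstream, 10 genes of the ERK5 and MEF2 pathway were tested, and Mef2a itself was the 1 that fell, with 0 rising. Of all genes tested, 1.34% fell and 0.406% rose. Mapk7, the gene of ERK5, was at 17.3 and 15.7 FPKM with scrambled siRNA and at 15.3 and 18.9 FPKM with siMEF2A. Mef2d, whose product binds the same sites as MEF2A, was at 30.2 and 32.5 FPKM with scrambled siRNA and at 27.8 and 31.0 FPKM with siMEF2A, overlapping groups that lay above the silenced Mef2a in every library.

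Downstream, 8 genes that Klf2 and Klf4 are known to regulate in some tissue were tested. Of these 1 fell and 0 rose, beside 1.34% and 0.406% of all genes tested. The gene that fell was Npnt (ENSMUSG00000040998, chromosome 3, 132881745 to 132950291, minus strand), which encodes nephronectin, an integrin ligand of the matrix that takes part in myoblast fusion. It was at 7.86 and 10.8 FPKM with scrambled siRNA and at 3.88 and 3.84 FPKM with siMEF2A. Both siMEF2A libraries lay below both scrambled ones, at 41.3% of their mean (log2 fold change -1.07, SE 0.16, interval -1.39 to -0.76, limma adjusted p = 1.79e-05). Most of it came from the transcript of 4619 bases, at 7.28 and 9.04 against 3.17 and 3.65 FPKM. Klf2 and Klf4, its known regulators, were at 84.8% and 99.1% of scrambled in the same libraries and did not pass. The other genes of that list pointed both ways: Thbd and S1pr1, endothelial targets of Klf2, were at 128% and 137% of scrambled (limma adjusted p = 0.610 and 0.476), and Cdkn1a, a cell cycle inhibitor and target of Klf4, was at 69.2% (limma adjusted p = 0.173).

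Genes of signals that induce members were counted in the same way, beside the 1.74% of all genes tested that passed. Of 12 TGF-beta response genes, 0 passed and the median log2 fold change was 0.038. The smallest p belonged to Id2, at 23.7 and 21.2 FPKM with scrambled siRNA and 18.8 and 18.3 FPKM with siMEF2A. Klf10, of the same response, was at 90.7%. Of 13 glucocorticoid response genes, 0 passed and the median was 0.11. The smallest p was that of Errfi1, an inhibitor of EGF receptor signalling, at 14.8 and 16.6 FPKM with scrambled siRNA and 19.5 and 21.7 FPKM with siMEF2A (limma adjusted p = 0.443). Of 7 adipogenic genes, a process on which several Kruppel-like factors act, 1 rose and 0 fell. It was Lpl, lipoprotein lipase, at 0.897 and 1.44 FPKM with scrambled siRNA and 2.63 and 1.98 FPKM with siMEF2A (limma log2 fold change of 0.61 with an SE of 0.16, adjusted p = 0.0270). Under the 3 other scalings its log2 fold change stayed at 0.58 to 0.61 but did not pass (limma adjusted p = 0.121 to 0.235). It was 0.43 without scrambled replicate 1 (0.776) and 0.47 without siMEF2A replicate 1 (0.273), and did not pass there either. Fabp4, a fatty acid binding protein of fat cells, pointed the other way, at 2.30 and 1.54 FPKM with scrambled siRNA and 0.767 and 1.18 FPKM with siMEF2A. The groups did not overlap, and its log2 fold change of -0.56 did not pass (limma adjusted p = 0.0584).

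**Figure D5:**
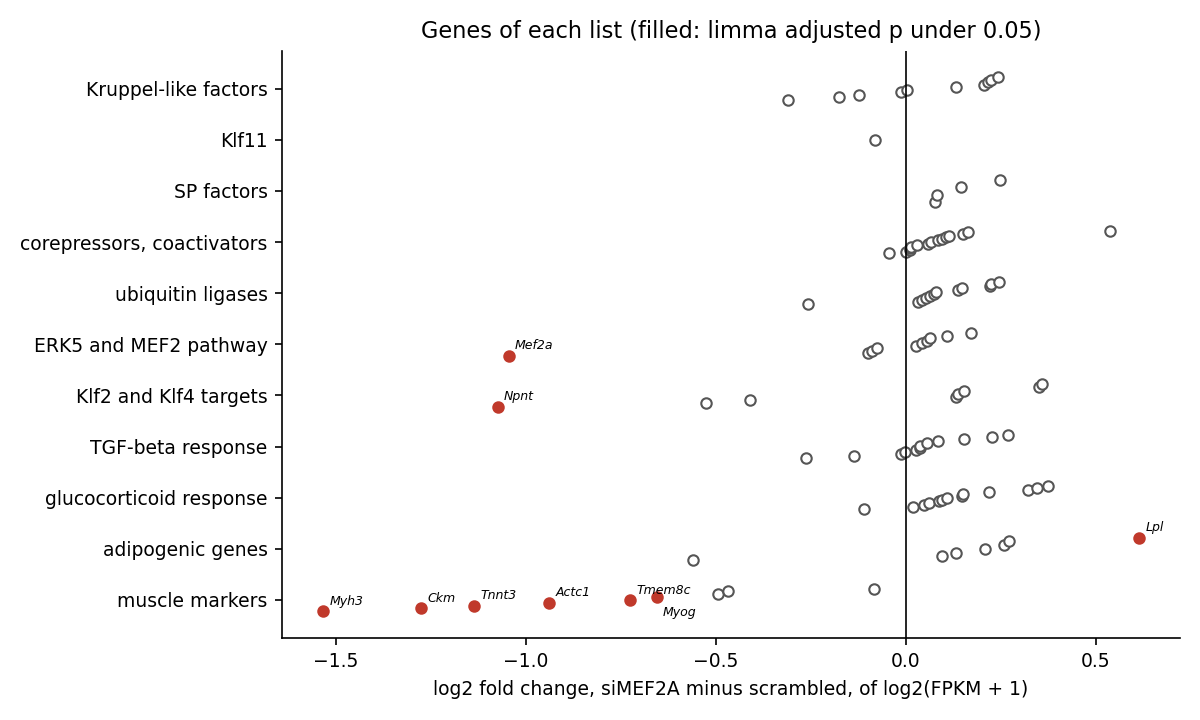
Log2 fold change (siMEF2A minus scrambled, of log2(FPKM + 1)) of each gene tested in the Kruppel-like factor family and in the lists around it; filled points passed at a limma adjusted p under 0.05. No point of the family is filled, and the filled points outside the muscle markers are Mef2a, Npnt and Lpl.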

How the data were processed

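The authors deposited FPKM for each Ensembl transcript and library, per the file headers, and build mm10 with Cufflinks, TopHat, Bowtie, Trimmomatic and CASAVA per the submitters' processing notes. Not given in the sources used here were their versions, the annotation, the rule for listing transcripts and the scaling between libraries. FPKM of the 36231 transcripts were summed per symbol, 28 small RNA symbols were dropped, and a minimum mean of 1 FPKM kept 11822 genes. Values were compared as log2(FPKM + 1), which understates changes of low genes, with limma 3.58.1 in R 4.3.3 (two-sided, intensity trend, 2 residual and 31.1 prior degrees of freedom, Benjamini-Hochberg over all genes), and called at an adjusted p under 0.05. Intervals are 95%. The fit was tested on simulated data with its own variances, with changes set in genes more abundant than Klf2, Klf4, Klf7 and Klf9. It called 49.25% of changes of 1.5 times in FPKM + 1, 97.01% at 2 times and 100% at 4 times, with 5 false calls.

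Counts were not used here and absolute depth is unknown. Depth relative to scrambled replicate 1, read from the commonest ratio of low values, was 1.05 in the other scrambled library and 0.849 and 0.848 in the siMEF2A libraries, and rests on 10 to 17 genes. Of windows of 50 bases in a member's main transcript, at most 0.268% occur in another gene's GENCODE M21 transcripts. All members, the genes with calls in each list and otherwise the gene of smallest p were to be named; Ctbp1, Ctbp2, Mapk7, Mef2d, Thbd, S1pr1, Cdkn1a and Fabp4 were chosen after their values were seen. The members and lists were chosen with earlier results of these data known. The 16 alternatives are given in the closing section.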

Additional observations from a re-analysis of the deposited data

How the results depend on the processing

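The Kruppel-like factor counts stayed at 0 higher and 0 lower under all 16 alternatives, with the smallest adjusted p of a member between 0.0655 (Klf5, replicate block) and 0.993. At a minimum mean of 5 FPKM, 6 members were tested. Klf4 changed sign without scrambled replicate 2 (0.13) or siMEF2A replicate 1 (0.15), and was -0.16 and -0.18 with the other library of each group left out. Klf16 changed sign under median-ratio (-0.045), upper-quartile (-0.033) and quantile (-0.041) scaling and without scrambled replicate 1 (-0.14) or siMEF2A replicate 2 (-0.062). The other 8 kept their direction. Mef2a stayed called lower, from -1.20 to -0.89 with single libraries left out.

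With the replicate number as a block, 224 genes were higher and 290 lower. That was 4.35% of genes tested, beside 1.74% without the block. The share of all genes at an unadjusted limma p under 0.05 was counted only for the fit used above, at 6.38%. With the block, 5 members had such a p, and without the share of all genes in that fit this count cannot be judged. The count of members was 1 under each other scaling, with robust moderation and without scrambled replicate 1 or siMEF2A replicate 2, and 0 under the other 9 alternatives. The labels do not say that numbers pair libraries. Across genes the deviations of same-numbered libraries from their group mean correlated at 0.288. With 2 libraries a group the deviations of 1 pair mirror those of the other, so this is 1 comparison. The count of higher genes was 30 without a filter on low values, 14 under median-ratio and 14 under upper-quartile scaling, 11 under quantile normalization, 23 with small RNA symbols kept, 25 without a trend and 73 with robust moderation. The count of lower genes was 98 at a minimum mean of 5 FPKM. Leaving out single libraries gave 43 to 76 higher genes, with 76 without scrambled replicate 2, and 137 to 165 lower genes. The causes were not tested. Adjusted p-values of lost calls were for Lpl 0.0656 without a filter, 0.0632 with no trend and 0.0597 when small RNA symbols stayed in, for Myog 0.0503 without a filter and 0.0672 with the most abundant transcript, and 0.0908 and 0.0809 under quantile normalization for Myog and Tmem8c. Absolute depth is unknown, so no counting error can be given for the low members.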
